A study of Mus musculus with 6 samples.

Results

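The 49 genes described here copy DNA in S phase, from the loading of the helicase at origins to the supply of nucleotides, and were listed by symbol for their known roles in replication. Each gene was read from the probe sets annotated to its symbol alone, and where there were several, from the one with the highest mean over the 6 arrays. All 49 were measured, among 18194 genes in all. They were divided into origin licensing (9 genes), the CMG helicase (11), origin firing and helicase partners (4), polymerases (9), fork factors (11) and nucleotide supply (5).

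Replication starts in G1, when the origin recognition complex, Cdc6 and Cdt1 load rings of the MCM proteins onto DNA, which licenses the origin. In S phase the kinase Cdc7 with Dbf4, together with cyclin-dependent kinases, lets Cdc45 and the GINS complex join the ring to make the active CMG helicase. Polymerases, the PCNA clamp and its RFC loader, and the single-strand binding protein RPA then copy both strands, while ribonucleotide reductase and the thymidylate enzymes supply the deoxynucleotides. E2F transcription factors are known to drive many of these genes at the start of S phase. Mouse embryonic stem cells spend a large share of their short cycle in S phase.

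Total RNA was taken at 96 h from mouse embryonic stem cells of the E14Tg2a line that had been transfected with Ncl siRNA #1, with Ncl siRNA #2 or with a control duplex against firefly luciferase, which the cells do not encode. Both Ncl siRNAs are commercial duplexes against Ncl, the gene of the nucleolar protein nucleolin. Each group had 2 Affymetrix arrays, and the number of arrays limits the precision. The labels do not state separate cultures for the replicates. The p-values therefore reflect no more than array-to-array spread, which may be technical. Values are log2 signals as deposited, changes are log2 differences with their standard error (SE) from 1 limma fit to all 6 arrays, and adjusted p-values (Benjamini-Hochberg) cover all 18194 genes with a threshold of 0.05.

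The targeted gene was lower in all 4 knockdown arrays. Ncl read 13.77 and 13.74 with siRNA #1 and 13.77 and 13.72 with siRNA #2, against 14.21 in both control arrays, so that 72.9% and 72.5% of the control level were left by this probe set (limma, adjusted p = 5.65e-09 with siRNA #1 and 3.57e-09 with siRNA #2). The other 4 Ncl probe sets left 37.2% to 62.9% with siRNA #1 and 33.6% to 69.0% with siRNA #2. Knockdown was therefore partial by every probe set. Stem cell markers were high on all arrays, with Pou5f1 between 13.00 and 13.32 with the Ncl siRNAs, against 13.56 and 13.61 with control siRNA. The summed log2 signal of the 8 stem cell markers lay between 98.65 and 100.71 on the Ncl siRNA arrays, against 102.35 and 102.54 on the control arrays, with 6 of the 8 called lower and 1 higher.

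Both control arrays stood apart in transcripts that stem cells are not known for. The summed log2 signal of 8 airway secretory markers lay between 35.82 and 38.8 on the Ncl siRNA arrays, against 63.13 and 64.36 on the control arrays, with 6 of the 8 lower. Scgb1a1, a secretory protein of airway club cells, read 3.29 to 4.01 on the Ncl siRNA arrays and 12.96 on both control arrays. Of the other lists, 6 of 7 alveolar, 7 of 8 heart muscle, 3 of 8 leukocyte, 4 of 8 fibroblast and 3 of 8 endothelial markers were called lower, and 1 leukocyte and 2 endothelial markers higher. The summed alveolar signal was 42.39 to 43.35 on the Ncl siRNA arrays, against 56.71 and 57.7 on the control arrays, and that of heart muscle 38.91 to 39.67, against 46.21 and 48.85. The leukocyte sum was 47.86 to 48.38, against 52.84 and 53.51, the fibroblast sum 39.67 to 40.43, against 44.5 and 46.65, and the endothelial sum 44.57 to 45.3, against 45.56 and 45.64. By these sums the control arrays were higher in every list, by little in endothelium. The endothelial markers were mixed, with a median change of -0.35 with siRNA #1 and 0.10 with siRNA #2. Over all genes, 21.7% were called lower and 20.3% higher for the mean of both Ncl siRNAs. Actb, used as a gauge of RNA quality, gave a mean 3′ minus 5′ signal of 0.26 with siRNA #1 and 0.23 with siRNA #2, against 0.48 with control, while that of Gapdh was -0.015 with siRNA #1 and 0.01 with siRNA #2, against -0.026 with control. Probe sets for 18S ribosomal RNA averaged 13.08 with siRNA #1 and 13.11 with siRNA #2, against 12.10 with control, and the hybridisation controls 10.99 and 10.89, against 11.79. The mean of the poly-A control RNAs was 8.71 ± 0.20 with siRNA #1 and 8.42 ± 0.05 with siRNA #2, against 7.66 ± 0.12 on the control arrays (SD, n = 2 each). These differences move with every comparison against control, each of which rests on the same 2 control arrays, and their part in the results was not tested. The comparison of the Ncl siRNAs with each other does not use the control arrays in its means.

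Most replication genes were lower after Ncl knockdown. Averaged over both Ncl siRNAs, 33 of the 49 fell against control, 2 rose and 14 did not pass the test. The background over all genes was 21.7% lower and 20.3% higher in that comparison. The members' median change was -0.24 on the log2 scale, against -0.05 over all genes. Of the 49, 8 fell by at least 1.5-fold, against 6.45% of all genes, and none rose by as much, against 9.48%. Over the 107 probe sets of the members, 53 were lower and 3 higher, against 16.3% and 15.3% of all probe sets on the array. The mean signal of 48 of the 49 was at or above the median of all genes, and among such genes 32.8% were called lower and 30.7% higher. In 32 members all 4 Ncl siRNA arrays lay below both control arrays and in 2 all 4 lay above, against 26.7% and 23.4% of all genes. In bulk RNA, fewer cells in S phase and less of each transcript per cell cannot be told apart.

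**Figure D1:**
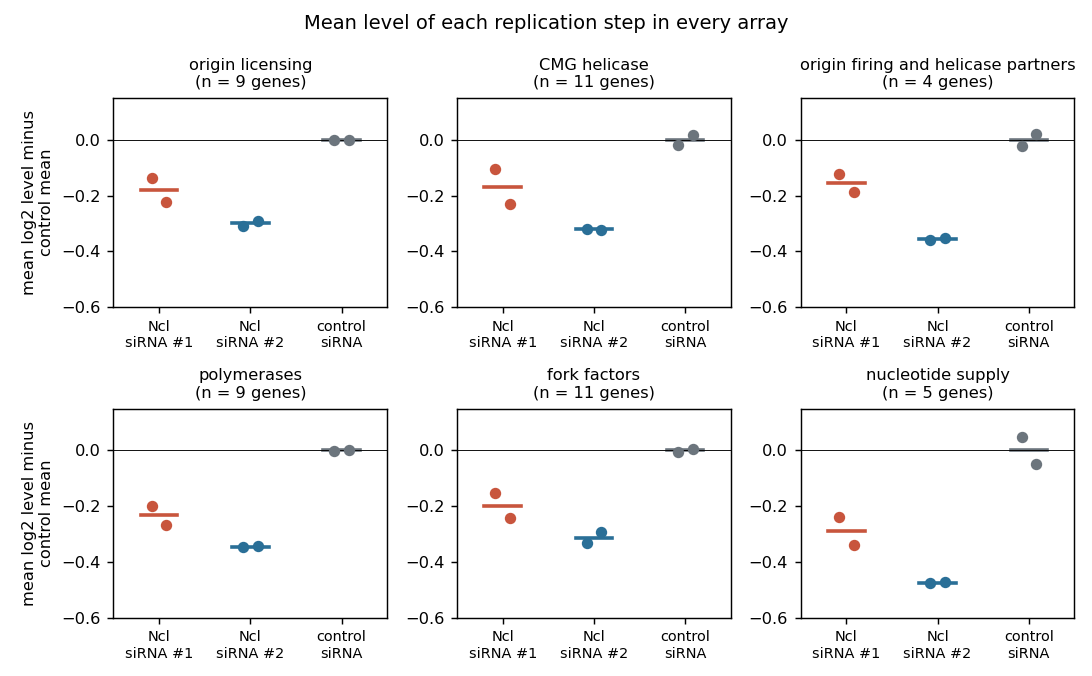
Mean log2 signal of the genes of each step on every array, minus the control mean of that step (vertical axis). Points are single arrays and short lines are group means. In every step all 4 Ncl siRNA arrays lie below both control arrays, and the siRNA #2 arrays lie lowest.

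Falls outnumbered rises with each siRNA taken alone. With siRNA #1, 24 members fell and 1 rose, against a background of 17.3% lower and 20.2% higher, and the median change was -0.16. With siRNA #2, 36 members fell and 2 rose, against 21.7% lower and 17.7% higher, and the median change was -0.33. Among genes at or above the median signal, 24.8% were lower and 31.4% higher with siRNA #1, and 35.5% were lower and 26.4% higher with siRNA #2. By gene, 24 members were called lower with each siRNA (14.3% of all genes), 1 higher with each (15.5% of all genes), and 11 were called with neither. Another 12 were called lower with siRNA #2 and not with siRNA #1, and 0 with siRNA #1 and not with siRNA #2. That is a count of calls and not a test of the difference. Lower calls over all genes numbered 3143 with siRNA #1, 3952 with siRNA #2 and 2596 with each. There too, more genes were called lower with siRNA #2. Shares of all genes called with only 1 siRNA, or with neither, were not counted directly. No member was called in opposite directions.

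**Figure D2:**
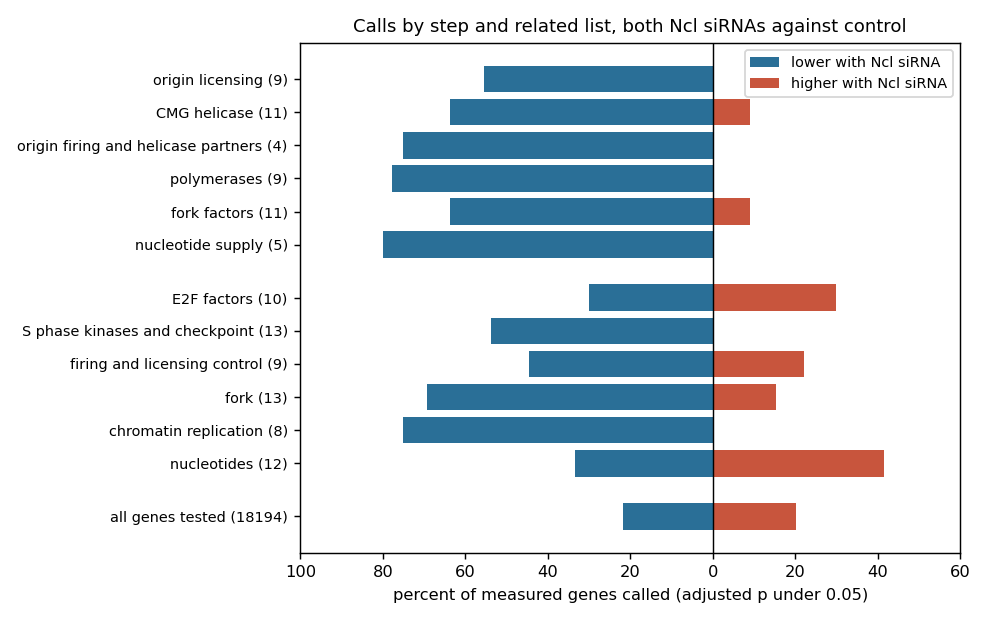
Percent of the measured genes called lower (left, blue) or higher (right, red) at an adjusted p under 0.05 for both Ncl siRNAs against control. Rows are the 6 steps, 6 lists of related genes outside the 49, and all genes tested. Lower calls make up 55.6% of origin licensing, 63.6% of CMG helicase, 77.8% of polymerase and 80% of nucleotide supply genes, against 21.7% of all genes.

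Of the 9 origin licensing genes, 5 fell, none rose and 4 did not pass, with a median of -0.16. Cdc6, Gmnn and Orc5 fell most. Cdc6, the ATPase that joins the origin recognition complex to the MCM ring, read 10.12 and 10.11 with siRNA #1 and 9.99 and 9.98 with siRNA #2, against 10.73 and 10.63 with control. The 4 knockdown arrays all lay below control, and Cdc6 fell to 64.6% of control (log2 -0.63, SE 0.06, adjusted p = 9.41e-09). Gmnn, geminin, which binds Cdt1 and blocks licensing again within the same cycle, read 11.53 and 11.39 with siRNA #1 and 11.45 and 11.43 with siRNA #2, against 11.99 and 11.91 with control. It fell by 0.49 with siRNA #1 and by 0.51 with siRNA #2, and the 95% interval of siRNA #2 minus siRNA #1 was -0.14 to 0.10. Cdt1, the partner of Cdc6 in loading, read 12.92 on all 4 knockdown arrays and 13.00 on both control arrays, and this difference of -0.08 did not pass (adjusted p = 0.0974).

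The 6 subunits of the origin recognition complex did not move as a unit. Orc5 fell to 71.5% of control (log2 -0.48, SE 0.06, adjusted p = 6.83e-07), Orc2 to 84.0% and Orc6 to 89.3%. The 3 probe sets of Orc2 disagreed in size, at -0.25 for the one used, -0.01 (adjusted p = 0.967) and -1.31 (adjusted p = 2.03e-09). The call of Orc6 was lost in 3 of 14 other settings (adjusted p up to 0.215). Orc4, the member of licensing with the highest change, read 10.124 and 10.109 with siRNA #1 and 10.001 and 9.957 with siRNA #2, against 9.955 and 9.971 with control, and did not pass (log2 0.09, SE 0.06, adjusted p = 0.282). Orc1, the subunit whose level cycles in mammalian cells, read 10.14 and 9.91 with siRNA #1 and 10.16 and 10.07 with siRNA #2, against 10.09 and 10.11 with control. Its groups overlapped, and the 95% interval of its change was -0.17 to 0.11. Orc3 differed most between the siRNAs in this step, and read 9.14 and 9.29 with siRNA #2, against 9.64 and 9.46 with siRNA #1, and 9.48 and 9.49 with control. Its siRNA #2 arrays lay below all others (siRNA #2 minus siRNA #1 log2 -0.34, SE 0.09, adjusted p = 0.0169). The dimmer probe sets of Orc3 were both called lower for the mean of both siRNAs, at -0.44 and -0.76 (adjusted p = 0.00821 and 0.00066). With siRNA #1 they gave -0.19 (adjusted p = 0.346) and -0.69 (adjusted p = 0.00532). Their differences of siRNA #2 minus siRNA #1 were -0.50 (SE 0.14) and -0.13 (SE 0.17).

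Within the CMG helicase, all 4 GINS genes fell and 2 of the 6 genes of the MCM ring fell. Of the 11 genes 7 fell, 1 rose and 3 did not pass, with a median of -0.21. The GINS genes fell with each siRNA, and their median for the mean of both was -0.46. Gins2 read 10.04 and 9.93 with siRNA #1 and 9.71 and 9.68 with siRNA #2, against 10.51 and 10.53 with control. It fell to 62.2% of control (log2 -0.69, SE 0.06, adjusted p = 4.54e-09), with the siRNA #2 arrays below those of siRNA #1 (log2 -0.29, SE 0.07, adjusted p = 0.0125). Gins1 stood at 71.8% of control, Gins4 at 73.1% and Gins3 at 76.2%, each past the test. The call of Gins3 with siRNA #1 was near the threshold (adjusted p = 0.0416). The other probe set of Gins3 gave -0.01 with siRNA #1 (adjusted p = 0.95) and -0.36 with siRNA #2 (adjusted p = 0.0403). For the mean of both it gave -0.19 and did not pass (adjusted p = 0.222). Cdc45, which links the GINS complex to the ring, read 9.11 and 8.97 with siRNA #1 and 8.94 and 8.91 with siRNA #2, against 9.26 and 9.13 with control. It fell to 86.2% of control with the mean of both (adjusted p = 0.0292), though not with siRNA #1 alone (adjusted p = 0.18), and the call was lost in 5 of 14 other settings (adjusted p up to 0.316).

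The 6 subunits of the MCM2-7 ring, the motor of the helicase, had a median change of -0.04. Mcm4 read 12.29 and 12.22 with siRNA #1 and 12.11 and 12.18 with siRNA #2, against 12.52 and 12.53 with control. It fell to 80.0% of control (log2 -0.32, SE 0.04, adjusted p = 2.27e-06), the largest fall of the ring. Mcm2, Mcm6 and Mcm7 did not pass for the mean of both, and the 95% intervals of their changes were -0.13 to 0.08, -0.16 to 0.04 and -0.05 to 0.10. With siRNA #2 alone Mcm6 was called lower (log2 -0.14, adjusted p = 0.0492). Other probe sets of Mcm7 gave -0.13 (adjusted p = 0.0466), 0.10 (adjusted p = 0.182) and 0.02 (adjusted p = 0.777) for the mean of both. The one at 0.10 was called higher with siRNA #1 alone (log2 0.21, adjusted p = 0.0175). Mcm3 read 12.25 and 12.13 with siRNA #1 and 12.19 and 12.14 with siRNA #2, against 12.08 and 12.03 with control. It was called higher (log2 0.12, SE 0.05, adjusted p = 0.0396), but its 5 probe sets ranged from -0.70 to 0.12, and their mean gave -0.12 (adjusted p = 0.164). Mcm5 was called lower (log2 -0.21, SE 0.04, adjusted p = 0.000349). Without probe sets of the kinds marked as able to read several transcripts it read 0.20 (adjusted p = 0.00492). In the fit to all probe sets, Mcm5 was the 1 member with probe sets called in opposite directions. The probe set used for Mcm3 did not pass in that fit (adjusted p = 0.0609). The direction of Mcm3 and Mcm5 thus depends on the probe set.

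Among the firing factors and partners of the helicase, 3 of 4 genes fell, with a median of -0.17. Mcm10, which binds the helicase when it is activated, read 10.14 and 10.11 with siRNA #1 and 9.86 and 9.87 with siRNA #2, against 10.54 and 10.64 with control. The 3 groups did not overlap, and Mcm10 fell to 66.3% of control (log2 -0.59, SE 0.06, adjusted p = 2.64e-08) and was lower with siRNA #2 than with siRNA #1 (log2 -0.26, SE 0.07, adjusted p = 0.0206). The kinase gene Cdc7 fell to 86.8% and its activator Dbf4 to 91.4% of control (adjusted p = 0.0193 and 0.0161). Each of these calls was lost in 5 of 14 other settings, with adjusted p up to 0.756 for Cdc7, whose change was then -0.04, and up to 0.288 for Dbf4. Mcm8, an MCM paralogue outside the ring, had the highest change of this step and read 8.05 and 7.99 with siRNA #1 and 7.77 and 7.77 with siRNA #2, against 7.94 and 8.05 with control (log2 -0.10, adjusted p = 0.468).

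**Figure D3:**
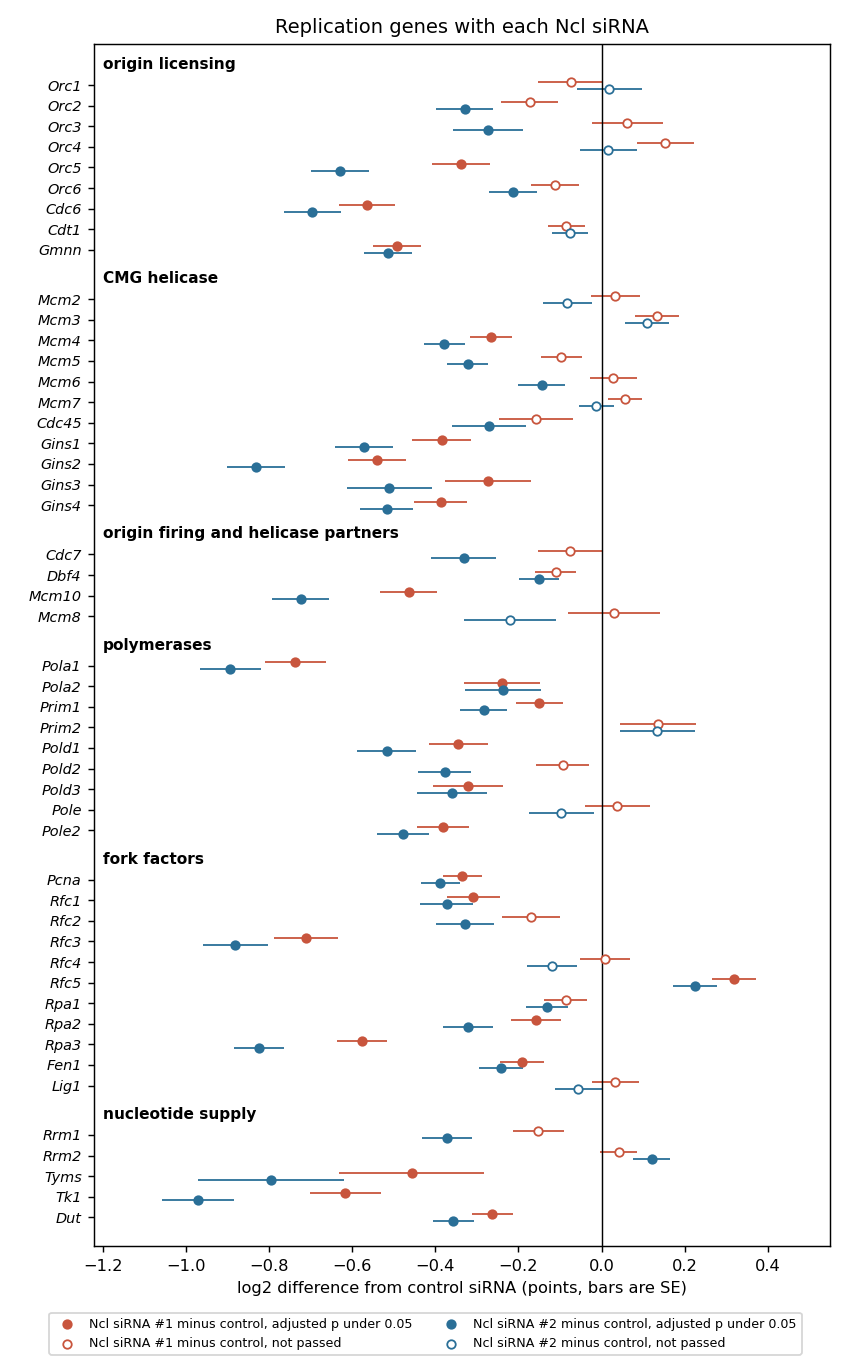
Log2 change of each of the 49 genes against control siRNA (horizontal axis), grouped by step, with siRNA #1 in red and siRNA #2 in blue. Points are the limma estimates, bars are the SE, and filled points passed an adjusted p of 0.05. Changes run from -0.74 to 0.32 with siRNA #1 and from -0.97 to 0.22 with siRNA #2, and Rfc5 is the 1 gene with filled points above 0 for both.

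The polymerase genes included the largest fall of all members. Of 9 genes 7 fell, none rose and 2 did not pass, with a median of -0.24. Pola1, the catalytic subunit of polymerase alpha, which starts each new strand, read 9.88 and 9.76 with siRNA #1 and 9.66 and 9.66 with siRNA #2, against 10.51 and 10.61 with control. It fell to 56.9% of control (log2 -0.81, SE 0.06, adjusted p = 5.64e-10). Its second probe set was dim, with a mean of 3.80, and gave a change of 0.21. The partners of Pola1 in the primase complex moved less: Pola2 fell to 84.8% and Prim1, the catalytic primase subunit, to 86.1% of control (adjusted p = 0.0183 and 0.000884). The call of Pola2 was lost in 4 of 14 other settings (adjusted p up to 0.197). Prim2, the other primase subunit, read 9.28 and 9.42 with siRNA #1 and 9.46 and 9.24 with siRNA #2, against 9.29 and 9.14 with control. Its groups overlapped, and the 95% interval of its change was -0.03 to 0.30 (log2 0.13, adjusted p = 0.19). Its probe sets disagreed, since another was called lower (log2 -0.28, adjusted p = 0.0204) and the third gave -0.14 (adjusted p = 0.61).

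The genes Pold1, Pold2 and Pold3 of the lagging-strand polymerase delta fell, while the small subunit gene Pold4, which is not among the 49, rose by 0.37 (SE 0.14, adjusted p = 0.0429). Pold1, the catalytic subunit, fell to 74.2% of control (log2 -0.43, SE 0.06, adjusted p = 5.45e-06), and its other probe set read 0.09 (adjusted p = 0.335 in the fit that used it). Pold3 fell to 78.9% (adjusted p = 0.000576). Pold2, the subunit that ties the complex together, read 10.40 and 10.38 with siRNA #2, against 10.72 and 10.64 with siRNA #1, and 10.74 and 10.80 with control. The siRNA #2 arrays lay lowest, with siRNA #2 minus siRNA #1 at -0.28 (SE 0.06, adjusted p = 0.00735) and siRNA #1 minus control at -0.09 (adjusted p = 0.276). Of the leading-strand polymerase epsilon, Pole2 fell to 74.3% of control (log2 -0.43, SE 0.05, adjusted p = 9.2e-07), while for the catalytic subunit Pole the 95% interval was -0.17 to 0.11 (adjusted p = 0.775).

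The factors that act at the moving fork held one of the largest falls and the largest rise. Of 11 genes 7 fell, 1 rose and 3 did not pass, with a median of -0.24. The 5 clamp loader genes, whose proteins work as 1 complex, moved in different directions. Rfc3 read 9.67 and 9.54 with siRNA #1 and 9.41 and 9.46 with siRNA #2, against 10.25 and 10.38 with control, and fell to 57.6% (log2 -0.80, SE 0.07, adjusted p = 2.25e-09). Rfc5 read 12.18 and 12.11 with siRNA #1 and 12.02 and 12.08 with siRNA #2, against 11.85 and 11.80 with control. Every knockdown array of Rfc5 lay above control, and it rose to 121% (log2 0.27, SE 0.05, adjusted p = 3.36e-05) by its only probe set. Rfc1 fell to 79.0% and Rfc2 to 84.2% of control, and Rfc4 did not pass (95% interval -0.16 to 0.05). The other probe set of Rfc4 was called lower (log2 -0.30, adjusted p = 0.00111).

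Pcna, the sliding clamp, read 13.83 and 13.68 with siRNA #1 and 13.67 and 13.72 with siRNA #2, against 14.11 and 14.06 with control. It fell to 77.8% (log2 -0.36, SE 0.04, adjusted p = 1.72e-07), by 0.33 with siRNA #1 and by 0.39 with siRNA #2. Of the 3 RPA subunits, which coat single-stranded DNA, the smallest moved most. Rpa3 read 10.72 and 10.73 with siRNA #1 and 10.47 and 10.49 with siRNA #2, against 11.28 and 11.32 with control. The 3 groups were well apart, with a fall to 61.6% of control (log2 -0.70, SE 0.05, adjusted p = 2.55e-10) and siRNA #2 below siRNA #1 by -0.25 (SE 0.06, adjusted p = 0.0125). Rpa2 fell to 84.7%, and Rpa1 at 92.7% did not pass (adjusted p = 0.0535). Of the pair that joins Okazaki fragments, the flap nuclease gene Fen1 fell to 86.1% (adjusted p = 0.000509), though its other probe set gave -0.05 and the call was lost in 3 of 14 other settings (adjusted p up to 0.614). The ligase gene Lig1 had a 95% interval of -0.11 to 0.09 (adjusted p = 0.883).

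In nucleotide supply, Tk1 fell most and Rrm2 was not called lower. Of the 5 genes 4 fell for the mean of both siRNAs, with a median of -0.31. Tk1, the cytosolic thymidine kinase of S phase, read 9.52 and 9.27 with siRNA #1 and 9.03 and 9.05 with siRNA #2, against 10.04 and 9.98 with control. It fell to 57.7% of control (log2 -0.79, SE 0.07, adjusted p = 1.05e-08), and its level with siRNA #2 was lower than with siRNA #1 (log2 -0.35, SE 0.09, adjusted p = 0.0126). Rrm1, the large reductase subunit, read 11.56 and 11.40 with siRNA #1 and 11.30 and 11.23 with siRNA #2, against 11.66 and 11.60 with control, and fell to 83.4% (adjusted p = 0.000301). Rrm2, the small subunit that limits activity in S phase, read 13.12 and 13.20 with siRNA #1 and 13.24 and 13.23 with siRNA #2, against 13.13 and 13.11 with control. The 95% interval for the mean of both was 0.00 to 0.16 (adjusted p = 0.101), and with siRNA #2 alone Rrm2 rose to 109% (adjusted p = 0.0356). Its other probe sets gave 0.16 (adjusted p = 0.0269) and 0.03 (adjusted p = 0.626) for the mean of both. Dut, the dUTPase that keeps uracil out of DNA, fell to 80.7% (adjusted p = 3.69e-06). Tyms, thymidylate synthase, fell to 64.8% (log2 -0.63, SE 0.15, adjusted p = 0.00183), but it was the 1 member with an array below the array's median signal, and its 4 probe sets ranged from -0.63 to 0.18, with a mean of -0.13 that did not pass (adjusted p = 0.392).

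The members were also lower with siRNA #2 than with siRNA #1, by small amounts that moved with the scaling. Their median difference was -0.13 as deposited, -0.077 after quantile normalization and -0.17 with each array centred on its median. The matching medians over all genes were -0.03, -0.0035 and -0.06. Values below are as deposited. The difference was negative in 45 of the 49, with a median of -0.13 against -0.03 over all genes, and both siRNA #2 arrays lay below both siRNA #1 arrays in 38 and above them in 2, against 33.3% and 20.9% of all genes. By limma 10 members were called lower with siRNA #2, against 6.18% of all genes, and 0 higher, against 2.3%. Among genes at or above the median signal these shares were 11.3% and 3.52%. At an unadjusted p under 0.05, 23 members were lower and 0 higher. The matching share of all genes was not counted, so these counts cannot be set against a background. The 10 were Orc3, Orc5, Mcm5, Gins2, Cdc7, Mcm10, Pold2, Rpa3, Rrm1 and Tk1, at least 1 from each step. The calls depended on single arrays. Leaving out siRNA #1 replicate 1 gave a median of -0.09, with 42 of the 49 negative. Without siRNA #1 replicate 2 the median was -0.15, with 46 negative. Without either siRNA #2 replicate, or either control replicate, it was -0.13, with 45 negative. Variances without a trend gave 0 member calls. Calls over all genes also became few in that setting, with 142 in either direction, against 1543 with a trend. The 0 therefore does not set the members apart from all genes. At an unadjusted p under 0.05, that setting gave 11 members lower and 0 higher, again without a share over all genes. Ncl itself read 0.46 below control with both siRNAs by its brightest probe set. Its other probe sets left 37.2%, 48.0%, 40.5% and 62.9% of control with siRNA #1. In the same order, they left 33.6%, 51.2%, 44.9% and 69.0% with siRNA #2.

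**Figure D4:**
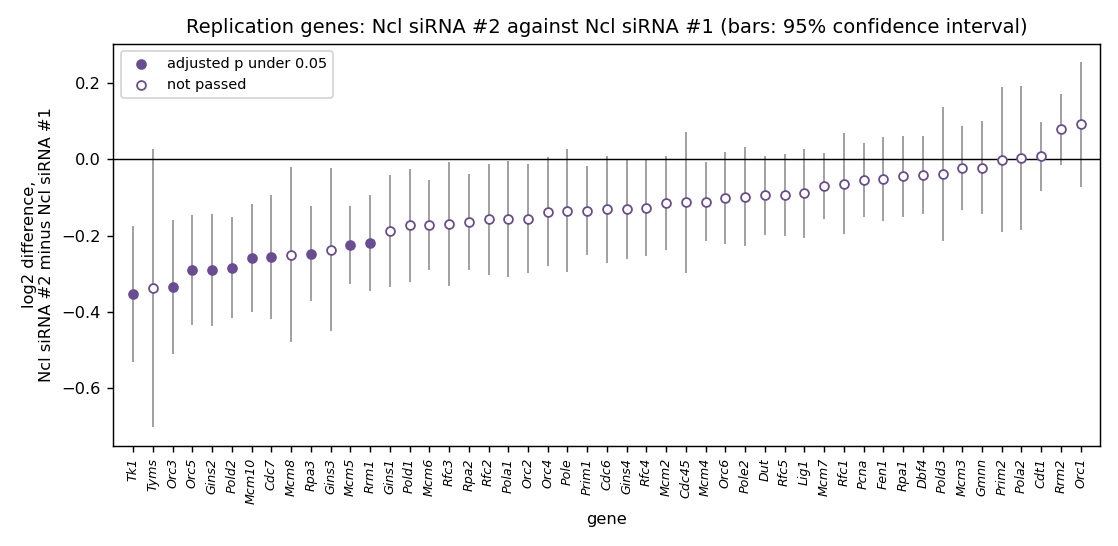
Log2 difference of siRNA #2 minus siRNA #1 (vertical axis) for each of the 49 genes, in order of size, with bars for the 95% confidence interval. Filled points are the 10 genes with an adjusted p under 0.05. Values run from -0.35 for Tk1 to 0.09 for Orc1, and 45 lie below 0.

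The promoters of the genes were searched for words that E2F factors are known to bind, since E2F drives much of this gene set. RefSeq promoter windows (GRCm38.p6, 250 bases before to 50 after the start) were found for 41 of the 49. The words were TTTCCCGC, TTTCGCGC, TTTGCCGC and TTTGGCGC on both strands, and words may overlap each other. At least 1 word was present in 16 of the 41 (39%), against 550 of 14453 tested genes with a window (3.81%). By step, words were found in 4 of 8 licensing genes, 5 of 7 helicase genes, 1 of 4 firing and partner genes, 4 of 7 polymerase genes, 2 of 10 fork genes and 0 of 5 nucleotide supply genes. TTTGCCGC was found in no member.

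Stretches of 30 bases 5′ to 3′ on the gene's strand with the word in capitals, are shown to set 4 genes that fell beside 3 that did not pass.
Cdc6, chr11:98908002-98908031 (+): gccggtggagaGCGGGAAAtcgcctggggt
Gins3, chr8:95633507-95633536 (+): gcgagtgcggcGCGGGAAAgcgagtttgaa
Pola1, chrX:93632275-93632304 (-): gtcatcacaggGCGCCAAAtgcactcccgc
Pole2, chr12:69228162-69228191 (-): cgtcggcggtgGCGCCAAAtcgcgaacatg
Orc1, chr4:108579416-108579445 (+): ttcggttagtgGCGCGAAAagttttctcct
Mcm7, chr5:138171849-138171878 (-): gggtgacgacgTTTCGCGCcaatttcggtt
Lig1, chr7:13278841-13278870 (+): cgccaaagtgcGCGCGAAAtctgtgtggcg
A word was present in 8 of the 27 members with a window that fell (29.6%) and in 7 of the 12 that did not pass (58.3%).

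Whole windows are shown for Rfc3, among the strongest falls, and Mcm6, which did not pass, because each holds several words close together.
Rfc3, chr5:151651159-151651458 (-): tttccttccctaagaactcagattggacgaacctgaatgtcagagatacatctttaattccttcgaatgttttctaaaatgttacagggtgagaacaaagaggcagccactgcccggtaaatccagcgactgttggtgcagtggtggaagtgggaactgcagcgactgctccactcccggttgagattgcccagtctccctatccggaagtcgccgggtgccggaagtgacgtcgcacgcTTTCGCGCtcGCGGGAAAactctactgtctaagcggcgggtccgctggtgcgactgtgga
Mcm6, chr1:128359656-128359955 (-): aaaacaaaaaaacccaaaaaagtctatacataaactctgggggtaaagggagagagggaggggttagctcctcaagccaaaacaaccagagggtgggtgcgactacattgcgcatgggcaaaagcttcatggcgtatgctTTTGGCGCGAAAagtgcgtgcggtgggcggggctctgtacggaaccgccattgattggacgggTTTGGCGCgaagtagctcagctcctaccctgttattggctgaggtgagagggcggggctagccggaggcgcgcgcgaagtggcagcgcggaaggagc
Capitals mark the words. Rfc3 held 2, with first bases at -10 and 1 relative to the start. Mcm6 held 3, with first bases at -110, -106 and -47, and the first pair overlap. A match describes these letters and is not a measured binding site.

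**Figure D5:**
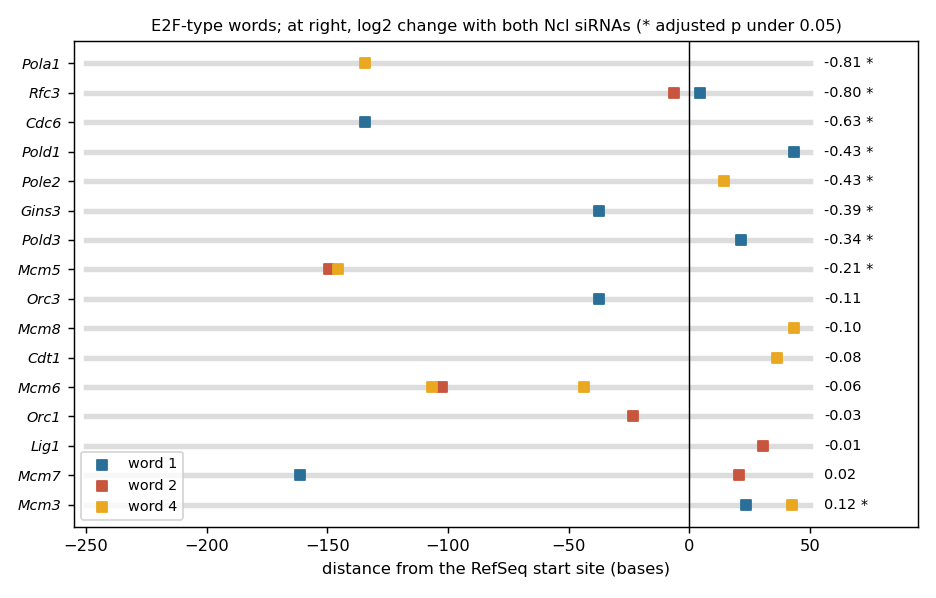
Positions of E2F words (squares) in the promoter windows of the 16 genes that hold one, in bases from the RefSeq start (horizontal axis), ordered by the log2 change for both Ncl siRNAs minus control printed at the right. Word 1 is TTTCCCGC, word 2 TTTCGCGC and word 4 TTTGGCGC, on either strand. Genes with words range from Pola1 at -0.81 to Mcm3 at 0.12.

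Other genes of replication and of S phase control, which are no members, were also measured. Of 65, 33 fell (50.8%), 12 rose (18.5%) and 20 did not pass for the mean of both siRNAs, with a median of -0.16. Over all genes 21.7% were lower and 20.3% higher, so the share of rises was near the background. Of the 10 E2F factors and their partners 3 fell and 3 rose (30% each), with a median of 0.05. E2f8, an atypical repressor, fell by 0.77 (SE 0.06, adjusted p = 7.52e-10) and the partner Tfdp2 by 0.47. E2f6, a repressor, rose by 1.25 (SE 0.07, adjusted p = 3.97e-12) and E2f4 by 0.48. Of 13 S phase kinases and checkpoint genes 7 fell and none rose, among them the checkpoint kinases Atr (log2 -0.61) and Chek1 (log2 -0.56).

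Of 9 firing and licensing control genes 4 fell and 2 rose. Fbxo5, an inhibitor of the anaphase-promoting complex, changed by -0.56 and Wdhd1, which links the helicase to polymerase alpha, by -0.39. Cdkn1a, the cyclin-dependent kinase inhibitor p21, which also binds PCNA, rose by 2.37 and the MCM paralogue Mcm9 by 0.52. Of 13 further fork genes 9 fell, led by Pole4 and Rnaseh2c at -0.72 each, and 2 rose, namely Pold4 and, by 0.25, Top1. Of 8 measured genes of chromatin replication 6 fell and none rose, with Chaf1b at -0.56 and the histone chaperone Nasp at -0.53. The 12 measured nucleotide genes included 4 lower (33.3%) and 5 higher (41.7%): Shmt1, which feeds thymidylate synthesis, changed by -0.66 and the thymidylate kinase Dtymk by -0.42, while Cad, which starts pyrimidine synthesis, rose by 0.57 and the salvage kinase Dck by 0.51.

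The genes outside the list whose pattern over the 6 arrays was most like the members' mean profile were Selenoh (r = 0.9998), Rbbp5 (0.9995), Haus1 (0.9991), Nbn (0.9991) and Acaa2 (0.9989). Pearson's r is given as a description over 6 arrays that share 3 groups. Their changes for the mean of both siRNAs were -0.32, -0.33, -0.51, -0.53 and -0.66.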

How the data were processed

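The authors deposited 1 normalized log2 value per probe set and array, per the labels from total RNA extracted with a Qiagen kit and labelled with an Affymetrix kit. How these values were normalized is not given in the sources used here. No scaling was added. The table held 45101 probe sets, of which 34958 carried 1 gene symbol, 932 several and 9211 none, per the platform annotation. The brightest of a gene's single-symbol probe sets was kept, giving 18194 genes, with no filter on low values.

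Group means were fitted to all 6 arrays in limma 3.58.1 (R 4.3.3) with trended empirical Bayes variances, with 3 residual and 17.5 prior degrees of freedom. The 4 contrasts were the mean of both Ncl siRNAs minus control, each siRNA minus control, and siRNA #2 minus siRNA #1. The procedure was tested on simulated data. Alternatives changed the normalization, the probe set rule, the filter on dim genes, the variance model, the arrays fitted, the replicate block and the threshold.

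Members and lists were chosen with earlier results of these data known. In full are given, per step, the genes with the lowest and highest mean change and the largest difference between the siRNAs. Cdt1, Gmnn, Orc1, Cdc45, Mcm4, Pcna and Rrm1 were added after their values were seen. Of other pathway genes, up to 2 per list and direction with the largest called change are named. Of 68 pathway genes listed, 65 were measured, and Chaf1a and Impdh2 were among those not analysed here. The alveolar marker Lamp3 was listed and not measured.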

Additional observations from a re-analysis of the deposited data

Results flagged for a closer look

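Between the siRNAs, 10 genes differed by limma's test of siRNA #2 minus siRNA #1. In licensing Orc3 differed by -0.34 and Orc5 by -0.29. In the helicase and its partners the values were -0.29 for Gins2, -0.23 for Mcm5, -0.26 for Cdc7 and -0.26 for Mcm10. Pold2 differed by -0.28, Rpa3 by -0.25, Rrm1 by -0.22 and Tk1 by -0.35. All 10 were negative. The calls depended on single arrays, and the medians with an array left out are given with the comparison.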

How the results depend on the processing

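The 33 lower calls for the mean of both siRNAs ranged from 24 (variances without a trend) to 35 (arrays centred on their medians) under the other settings, and from 28 to 34 when 1 array was left out. Of the 35 called genes, 21 were called the same way in every setting run among 14 that kept the threshold, 13 were lost in at least 1 and 3 reversed. The 2 higher calls became 1 under centring, the mean of probe sets, variances without a trend and a threshold of 0.01, and 1 to 2 with an array left out. With siRNA #1, the higher count of 1 became 2 after quantile normalization, 3 without probe sets ending in _x_at or _s_at and 2 without dim genes. Leaving out arrays gave 18 to 27 lower and 1 to 2 higher. With siRNA #2, the higher count of 2 became 1 under centring, without those probe sets, with the replicate block and at 0.01, and 0 without a trend (1 at an unadjusted p under 0.05). Leaving out arrays gave 29 to 36 lower and 1 to 3 higher. Between the siRNAs, the 10 lower calls became 6 with the mean of probe sets, 0 without a trend and 2 at 0.01, and 1 to 23 with an array left out, with 0 higher throughout. Reversed values were Mcm3 at -0.12 with the mean of probe sets and, without _x_at and _s_at probe sets, Mcm5 at 0.20 (0.31 with siRNA #1, 0.085 with siRNA #2), Pold1 at 0.094 (0.17 with siRNA #1, 0.016 with siRNA #2) and Fen1 at 0.058 with siRNA #1; other probe sets were read there. Replicate numbers did not pair the arrays (correlations of deviations -0.02, -0.00 and 0.01), and the replicate block gave 33, 21, 35 and 9 lower calls in the 4 contrasts. For siRNA #2 minus siRNA #1, lower genes made up 72.9% of all calls as deposited, 51.2% after quantile normalization and 82.1% after centring. The background for the mean of both also moved, with 3945 genes lower as deposited and 4383 after centring. The members' median minus that of all genes was -0.192 in each. Without a trend 6625 of all genes were called in either direction for the mean of both, against 7647 with it. For siRNA #2 minus siRNA #1, 142 of all genes were called without a trend, against 1543 with it. For the mean of both, a fit to only the arrays compared is the fit to all 6 arrays. The cause of these changes was not tested. The 2 arrays per group limit what small changes can be called.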
